A study of Homo sapiens with 18 samples.

Results

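A set of 10 genes that encode mucins and other secreted or cell-surface products was examined in a YAP and TAZ knockdown experiment in lung cancer cells. They are MUC5AC, MUC5B, MUC1, SERPINA6, FGB, HABP2, TCN1, CST1, TFPI2 and CEACAM7, 10 of the 22219 gene symbols listed in the deposited tables. The genes were selected on their counts in A549, where several had already been seen to move under knockdown. For that reason the A549 knockdown values of these 10 genes are given as a description, with no test. All 10 are listed in the A549 table (20335 symbols). In the H1299 table (18978 symbols) 2 of the 10, MUC1 and TFPI2, are listed, and their H1299 values were tested because they took no part in the selection.

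Both H1299 and A549 are established human non-small cell lung cancer lines. Each line received 30 nM of control siRNA (siControl), of a pool of siRNAs against YAP (gene YAP1, siYAP) or of a pool against TAZ (gene WWTR1, siTAZ) and was collected after 48 h, the last 18 h of which were without serum. H1299 was kept in RPMI-1640 and A549 in DMEM, so line, medium and experiment cannot be told apart. There are 3 libraries of poly(A) RNA in each of the 6 groups, 18 in all, and no label says that they came from separate cultures. A p-value here thus reflects variation from library to library, and that variation may be technical. Each knockdown is transient, is a pool rather than single siRNAs, and was compared with the same siControl libraries, so the siYAP and siTAZ comparisons share their controls.

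Mucins are large, heavily O-glycosylated glycoproteins. MUC5AC and MUC5B are the polymeric, gel-forming mucins of airway mucus, made by goblet cells and submucosal glands, whereas MUC1 spans the membrane of epithelial cells. SERPINA6 (corticosteroid-binding globulin), FGB (the beta chain of fibrinogen) and HABP2 (a hyaluronan-binding serine protease of plasma) are known best as products of hepatocytes. TCN1 is the vitamin B12 carrier haptocorrin, CST1 is cystatin SN, an inhibitor of cysteine proteases, and TFPI2 is a Kunitz-type inhibitor of serine proteases found in extracellular matrix. CEACAM7 is a lipid-anchored adhesion molecule of the carcinoembryonic antigen family. YAP and TAZ are transcriptional co-activators at the end of the Hippo pathway. They reach DNA mainly through TEAD factors, often at sites that AP-1 also occupies.

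Promoter sequences were read from RefSeq (GRCh38.p14) for 7 of the 10 genes, as the 250 bases before the annotated start, and 3 are printed because they belong to the genes with the largest fall under siTAZ, with a plasma product, and with the largest difference between replicate numbers. Capitals mark matches, on either strand, to any of 4 motif strings. These were the TEAD core GGAATG, the AP-1 site TGANTCA, the FOXA core TGTTTAC and the HNF1 string GTTAAT. The strings do not overlap one another in these sequences.

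TFPI2, chr7:93890754-93891003, minus strand: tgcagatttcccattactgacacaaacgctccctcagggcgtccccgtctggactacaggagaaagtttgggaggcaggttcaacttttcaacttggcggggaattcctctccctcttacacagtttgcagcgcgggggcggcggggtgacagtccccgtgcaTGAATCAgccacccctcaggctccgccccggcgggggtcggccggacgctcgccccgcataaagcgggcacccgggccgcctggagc

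SERPINA6, chr14:94323337-94323586, minus strand: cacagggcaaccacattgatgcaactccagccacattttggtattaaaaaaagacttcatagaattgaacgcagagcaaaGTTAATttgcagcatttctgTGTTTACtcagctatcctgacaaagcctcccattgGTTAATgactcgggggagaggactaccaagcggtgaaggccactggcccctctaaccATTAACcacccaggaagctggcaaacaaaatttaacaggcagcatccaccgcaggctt

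FGB, chr4:154562730-154562979, plus strand, first of its annotated starts: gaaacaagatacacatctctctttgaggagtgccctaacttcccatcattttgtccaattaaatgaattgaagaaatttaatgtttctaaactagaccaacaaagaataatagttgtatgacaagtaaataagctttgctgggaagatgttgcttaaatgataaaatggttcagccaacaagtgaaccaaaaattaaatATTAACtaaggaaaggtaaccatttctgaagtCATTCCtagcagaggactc

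The TFPI2 sequence holds 1 AP-1 match, 87 bases before the start, and no TEAD core. SERPINA6 holds 1 FOXA core at 150 bases and 3 HNF1 strings at 170, 115 and 58 bases before its start. FGB holds an HNF1 string at 51 bases and a TEAD core at 19 bases, both on the opposite strand. Of the genes read but not printed, MUC1 and CEACAM7 hold a TEAD core. HABP2 holds an AP-1 match and an HNF1 string before 1 of its annotated starts, and TCN1 holds no match. Of 35116 RefSeq windows of the same length, 11.9% hold the TEAD core, 6.57% the AP-1 site, 2.98% the FOXA core and 6.23% the HNF1 string. RefSeq and GENCODE place the starts differently, at 93890753 and 93890991 for TFPI2, 94323336 and 94323394 for SERPINA6, and 154562980 and 154562956 for FGB. Most of the TFPI2 window and part of the others thus lie inside the gene as GENCODE draws it. The AP-1 match of TFPI2, the TEAD core of FGB and the SERPINA6 HNF1 string at 58 bases lie there. For CEACAM7 the RefSeq and GENCODE starts are 41688270 and 41706976. For the HABP2 start with matches they are 113553053 and 113550837. Both of these windows, with their matches, lie wholly inside the gene as GENCODE draws it. A match is a description of letters and was not tied to binding in these data.

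Assigned reads ranged from 16778743 to 20772851 per H1299 library and from 10692671 to 44983651 per A549 library. Levels are counts-per-million (CPM) after TMM scaling. The targeted gene was lower than siControl in every knockdown library. YAP1 stood at 18.0% of control in H1299 and 29.7% in A549 under siYAP, and WWTR1 at 19.2% and 32.7% under siTAZ. In H1299 the siTAZ library numbered 2 kept 82.7 CPM of WWTR1, against 36.1 and 29 CPM in the other siTAZ libraries. The gene not targeted moved too in H1299. WWTR1 measured 265, 276 and 229 CPM in siControl and 173, 203 and 167 CPM in siYAP. YAP1 measured 83.6, 83.8 and 77.9 CPM in siControl and 96.5, 106 and 100 CPM in siTAZ. Comparing siYAP with siTAZ in H1299 thus does not separate YAP cleanly from TAZ, and the part of these shifts in the changes was not tested. Among markers, A549 lists all 6 epithelial genes tried but not the alveolar genes SFTPA1, SFTPB, SFTPC and NKX2-1, and H1299 lists 5 of the 6, without CDH1. Of 4 hepatocyte markers A549 lists TTR alone (summed level 1.95 to 13 CPM) and H1299 none, and neither lists ALB, APOA1 or APOA2. Goblet markers, of which 4 of 5 are listed in A549 and MUC5AC is one, summed to 125 to 299 CPM in siControl, 165 to 378 in siYAP and 176 to 382 in siTAZ. Most of this sum was AGR2, at 103 to 252 CPM in siControl. Means in siControl, siYAP and siTAZ were 12.2, 12.8 and 14.7 CPM for SPDEF and 1.99, 2.04 and 2.52 CPM for FOXA3. Leukocyte markers (2 of 6 listed in A549, PTPRC not among them) stayed between 4.27 and 7.98 CPM in every A549 group. In bulk RNA, fewer cells of a type and less RNA per cell cannot be told apart.

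Per kilobase of exon, TFPI2 was the most abundant of the 10 in A549 controls, at 164 ± 21.0 CPM per kb (SD, n = 3). CST1 followed at 13.9 ± 3.3 CPM per kb, MUC5B at 6.16 ± 1.28 and SERPINA6 at 5.67 ± 0.982. TCN1 stood at 3.70 ± 0.125, CEACAM7 at 2.45 ± 0.991 and FGB at 2.44 ± 1.61 CPM per kb. The lowest were MUC5AC at 1.45 ± 0.553, HABP2 at 1.22 ± 0.311 and MUC1 at 0.515 ± 0.0533 CPM per kb. MUC5B and SERPINA6 did not differ beyond their spread, nor did CEACAM7, FGB and MUC5AC, nor MUC5AC and HABP2. The levels of both shared genes differed between the lines in opposite directions. TFPI2 was 21.9 times as high in A549 controls as in H1299 controls (440 against 20.1 CPM), and MUC1 was 2.90 times as high in H1299 (7.04 against 2.43 CPM). With 1 TMM scaling over all 18 libraries the ratios were 26.4 and 2.4.

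In A549, the fitted level of 9 of the 10 genes was above control under siTAZ, and that of TFPI2 was below control under both knockdowns. Under siYAP, 6 of the 10 genes passed the threshold upward and 1 downward, against 2.5% and 3.17% of the 16008 genes tested. Under siTAZ, 8 passed upward and 1 downward, against 7.21% and 6.12%. The threshold is an adjusted p below 0.05 in edgeR's quasi-likelihood test with replicate number as a block. As these contrasts chose the genes, nothing is read from the counts. In a fit without that block, 0 of the 10 passed in either comparison, and 1 gene passed among all genes in each. The median log2 change of the 10 was 0.47 under siYAP and 0.50 under siTAZ, beside 0.0038 and 0.0028 over all genes tested. Without overlap between groups, 2 of the 10 genes were higher under siYAP (SERPINA6 and HABP2) and 0 lower, against 4.09% and 3.12% of all genes tested. Under siTAZ 4 were higher (SERPINA6, HABP2, TCN1 and CST1) and 1 lower (TFPI2), against 5.04% and 4.24%, and nothing is read from these counts either. Summed epithelial markers were 5304 to 6637 CPM in siControl, 4964 to 5779 in siYAP and 3891 to 5100 in siTAZ, so siTAZ lay below control without overlap. Ciliated markers (3 of 4 listed, without DNAI1) were 6.24 to 6.76 CPM in siControl, 7.03 to 9.06 in siYAP and 6.90 to 12 in siTAZ. The part of these markers in the changes was not tested.

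**Figure D1:**
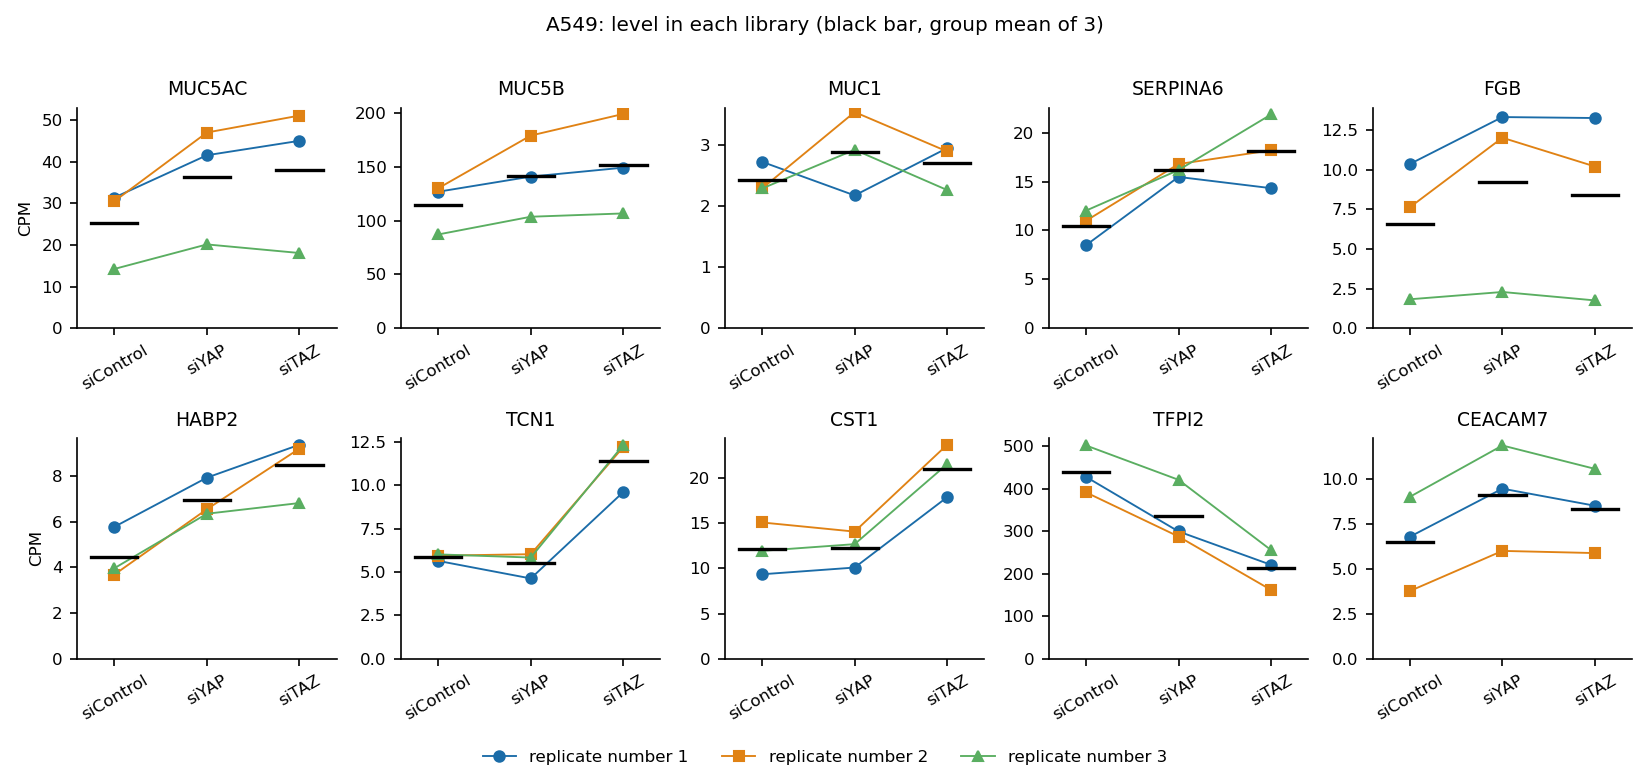
Level of each gene in CPM (vertical axes, from 0) in the 9 A549 libraries, by siRNA; lines join libraries with the same replicate number and black bars are means of 3. Number 3 lies lowest for MUC5AC, MUC5B and FGB in all 3 groups and highest for TFPI2 and CEACAM7, and TCN1 and CST1 are higher in the siTAZ libraries than in the other 6.

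The gel-forming mucins were higher in both knockdowns within each replicate number. MUC5AC (chr11:1157953-1201138, plus strand, GRCh38) measured 31.4, 30.5 and 14.2 CPM in siControl replicates 1, 2 and 3. It measured 41.5, 47.0 and 20.1 CPM in siYAP and 45.0, 51.0 and 18.1 CPM in siTAZ. Every knockdown library exceeded the control of its own number, yet the groups overlap because all 3 libraries numbered 3 are low. The fitted log2 change was 0.55 ± 0.06 (SE, n = 3 per group) for siYAP and 0.60 ± 0.06 for siTAZ, and the difference between the knockdowns was -0.05 ± 0.06.

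MUC5B lies 21.9 kb beyond the end of MUC5AC on the same strand (chr11:1223066-1262172). Its controls held 127, 130 and 87.1 CPM, its siYAP libraries 141, 179 and 104 CPM, and its siTAZ libraries 149, 199 and 107 CPM. As for MUC5AC, number 3 was lowest in each group and number 2 highest under each knockdown. Log2 changes were 0.31 ± 0.05 for siYAP and 0.40 ± 0.05 for siTAZ. After the mean of each replicate number was taken out, log2 levels of the neighbouring mucins correlated with r = 0.95 over the 9 libraries, which share siRNA groups and controls. HABP2, on another chromosome, reached r = 0.98 with MUC5B and 0.96 with MUC5AC on the same measure. MUC5B overlaps MUC5B-AS1 on the opposite strand, where 344 of 14568 windows of 50 bases of its transcript also occur, and the strand setting of the counting is not known here.

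MUC1 (chr1:155185824-155192916, minus strand) was scarce in A549, with 2.72, 2.28 and 2.28 CPM in siControl, 2.17, 3.53 and 2.92 in siYAP and 2.94, 2.89 and 2.26 in siTAZ. These groups overlap, and the same-numbered pairs did not move in 1 direction. Its log2 values were 0.40 ± 0.17 for siYAP and 0.21 ± 0.18 for siTAZ. The controls rest on 41, 95 and 30 counts. In H1299, MUC1 measured 6.65, 6.67 and 7.81 CPM in siControl, 8.67, 6.83 and 6.75 in siYAP and 8.11, 5.87 and 8.94 in siTAZ. The groups overlap there too, with log2 values of 0.07 ± 0.17 (edgeR adjusted p = 0.807) and 0.12 ± 0.17 (adjusted p = 0.669).

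Among the plasma products, SERPINA6 (chr14:94304248-94323394, minus strand) was higher in all knockdown libraries than in any control. It measured 8.49, 11 and 12 CPM in siControl, 15.5, 16.8 and 16.2 in siYAP and 14.3, 18.2 and 21.9 in siTAZ. The lowest knockdown library, siTAZ replicate 1, lay above the highest control. Fitted log2 changes were 0.61 ± 0.08 and 0.78 ± 0.08.

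HABP2 (chr10:113550837-113589602, plus strand) had the largest fitted rise under siYAP of the 10 genes. Its levels were 5.77, 3.68 and 3.96 CPM in siControl, 7.93, 6.54 and 6.35 in siYAP and 9.37, 9.20 and 6.82 in siTAZ. Neither knockdown group overlaps the controls, and the log2 changes were 0.70 ± 0.12 and 0.99 ± 0.12. Without siControl replicate 2 the siYAP value was 0.47. The gene overlaps NRAP on the opposite strand, and 10.7% of the 50-base windows of its longest transcript also occur in NRAP; the use of strand in counting is not given in the sources used here, so reads of the pair may not be separable.

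FGB (chr4:154562956-154571086, plus strand) followed the replicate number more than the siRNA. Controls held 10.3, 7.62 and 1.83 CPM, siYAP libraries 13.3, 12 and 2.29 CPM, and siTAZ libraries 13.2, 10.2 and 1.76 CPM. All 3 libraries numbered 3 lie far below the other 6, and the siTAZ library numbered 3 was no higher than its control (24 counts in that control). The fitted log2 values were 0.55 ± 0.10 for siYAP and 0.37 ± 0.10 for siTAZ.

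TCN1 and CST1 were higher in siTAZ and close to control in siYAP. TCN1 (chr11:59852800-59866575, minus strand) measured 5.64, 5.94 and 6.01 CPM in siControl, 4.62, 6.02 and 5.83 in siYAP, and 9.62, 12.2 and 12.3 in siTAZ. The siTAZ libraries all lie above the other 6. The log2 values were -0.06 ± 0.11 for siYAP and 0.98 ± 0.10 for siTAZ, and siYAP minus siTAZ was -1.03 ± 0.10 on that scale.

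CST1 (chr20:23747553-23751268, minus strand) gave the same order of groups. Its controls were 9.35, 15.1 and 12 CPM, its siYAP libraries 10.1, 14.1 and 12.7 CPM, and its siTAZ libraries 17.9, 23.7 and 21.6 CPM. Again no siTAZ library overlaps the other groups. Log2 values were -0.02 ± 0.08 and 0.77 ± 0.07, and siYAP minus siTAZ was -0.78 ± 0.07. Of the 50-base windows of its transcript, 27.3% occur in other genes, mostly in CST4, so part of the CST1 count is uncertain. The correlation of TCN1 with CST1 was r = 0.96 over the 9 A549 libraries after the number means were removed. The siRNA differences just given were left in, so this r restates them and is no separate result. The 3 members called between siYAP and siTAZ in A549 were TCN1, CST1 and TFPI2, the first pair lower in siYAP and the last higher, against 4.52% and 2.52% of all genes. That contrast, too, is from the libraries that chose the genes, and nothing is read from it.

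**Figure D2:**
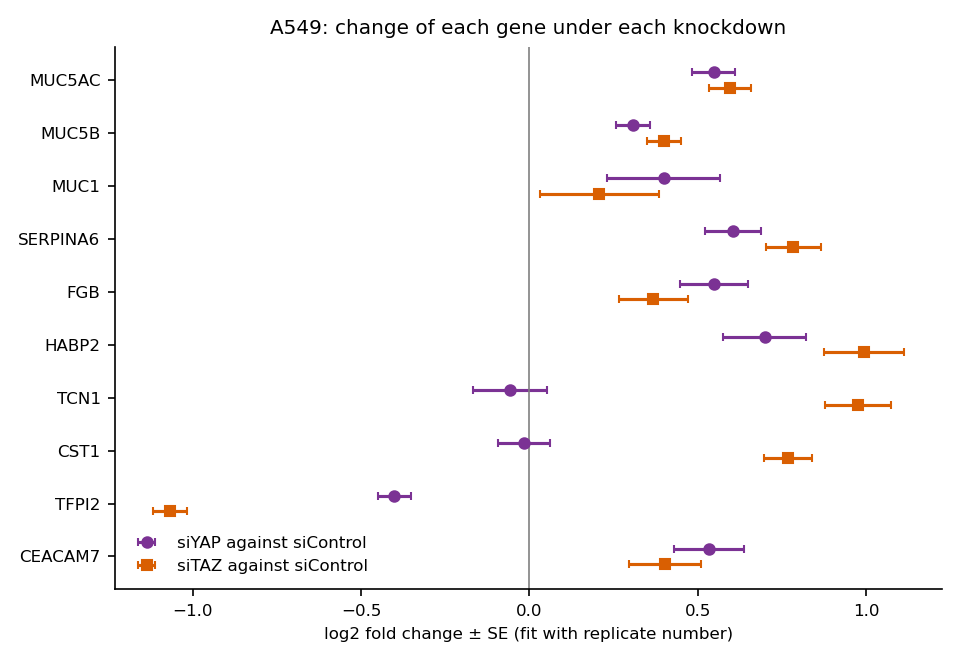
Fitted log2 fold change with its standard error (horizontal axis) for siYAP and siTAZ against siControl in A549, 3 libraries per group. TCN1 and CST1 lie near 0 under siYAP and at 0.98 and 0.77 under siTAZ, and TFPI2 lies at -0.40 and -1.07.

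TFPI2 (chr7:93885396-93890991, minus strand) was the 1 gene of the 10 below control under both knockdowns in A549. Controls held 428, 391 and 502 CPM, siYAP libraries 299, 287 and 421 CPM, and siTAZ libraries 221, 162 and 255 CPM. All siTAZ libraries lie below all others, whereas siYAP replicate 3 exceeds the lowest control. Log2 changes were -0.40 ± 0.05 for siYAP and -1.07 ± 0.05 for siTAZ, and siYAP stood 0.67 ± 0.05 above siTAZ. TFPI2 overlaps GNGT1 and AC002076.1 on the opposite strand, and 1.25% of the 50-base windows of its transcript also occur in the latter.

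In H1299, where TFPI2 was not used for selection, it fell under siYAP. Controls held 22.9, 17.9 and 19.6 CPM, siYAP libraries 12.7, 10.9 and 9.17 CPM, and siTAZ libraries 23.0, 12.8 and 13.1 CPM. Every siYAP library lies below every control and every siTAZ library, and siTAZ replicate 1 is as high as the highest control. The log2 change was -0.88 ± 0.20 for siYAP (edgeR adjusted p = 0.0112, lower in 3 of 3 same-numbered pairs). For siTAZ it was -0.31 ± 0.20 (adjusted p = 0.283, lower in 2 of 3 pairs), and for siYAP against siTAZ it was -0.58 ± 0.21 (adjusted p = 0.0854). With the replicate number as a block, the siTAZ change was -0.34 (adjusted p = 0.0456) and siYAP against siTAZ was -0.55 (adjusted p = 0.00707). The siYAP call was lost without siControl replicate 1 (-0.78, adjusted p = 0.0553), without siYAP replicate 3 (-0.77, adjusted p = 0.0635) and without all libraries numbered 3 (-0.79, adjusted p = 0.147). The siTAZ change was -0.63 (adjusted p = 0.0172) without siTAZ replicate 1, -0.15 without siTAZ replicate 2 (adjusted p = 0.613) or 3 (adjusted p = 0.683), and -0.19 (adjusted p = 0.606) without siControl replicate 1. The difference of siYAP from siTAZ was -0.26 (adjusted p = 0.367) without siTAZ replicate 1 and -0.73 (adjusted p = 0.0353) without siTAZ replicate 2. So 1 of the 2 tested genes fell under siYAP, where 8.75% of the 15775 genes tested did and 7.89% rose. Neither gene was called under siTAZ (10.9% higher and 12.4% lower among all genes) or between the knockdowns (5.6% and 6.1%). Because line and experiment cannot be told apart and the A549 values chose the gene, the difference between lines was not tested.

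**Figure D3:**
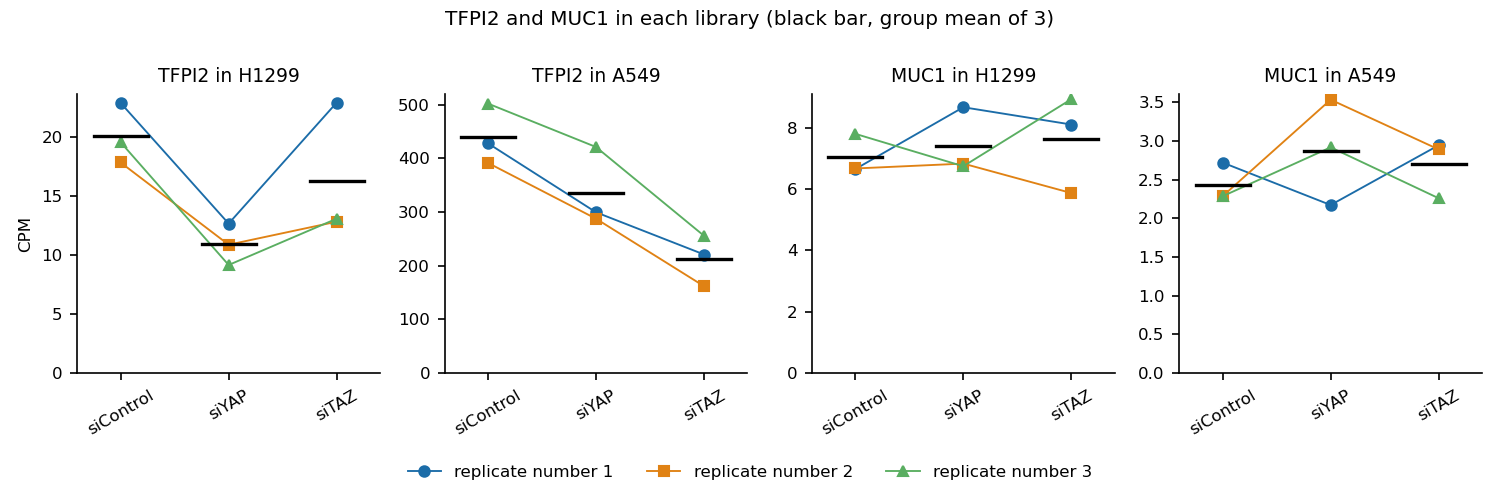
TFPI2 and MUC1 in CPM (vertical axes, from 0, scaled per panel) in the 9 libraries of each line; lines join libraries with the same replicate number and black bars are means of 3. TFPI2 is lowest under siYAP in H1299 and lowest under siTAZ in A549, with A549 controls 21.9 times as high as H1299 controls, and the MUC1 groups overlap in both lines.

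CEACAM7 (chr19:41673307-41706976, minus strand) measured 6.77, 3.75 and 8.98 CPM in siControl, 9.44, 5.98 and 11.8 in siYAP and 8.49, 5.86 and 10.5 in siTAZ. Each knockdown library exceeded the control of its number, and the groups overlap since number 3 was high and number 2 low throughout. Log2 values were 0.53 ± 0.10 and 0.40 ± 0.11. With number means removed and siRNA differences left in, its levels correlated most among the 10 with MUC5AC (r = 0.95) and FGB (r = 0.91).

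The replicate number was tested separately from the siRNA in A549, since it separates libraries within every group. This test was chosen after the values were seen. Of the 10 genes, 9 differed by number (edgeR quasi-likelihood F test, adjusted over all genes), all but MUC1, which had an adjusted p of 0.442. Among all genes tested 55.9% differed, so the count of 9 is read against a common effect. FGB had one of the largest differences of the line: libraries numbered 3 minus the mean of numbers 1 and 2 gave -2.54 ± 0.12 on the log2 scale, or 5.81-fold lower, and 7 of 16008 genes stood at or below that value. FGA and FGG, the other chains of fibrinogen, named after their values were seen, were -1.96 ± 0.06 and -2.24 ± 0.12. FGA measured 45.6, 41.1 and 10.7 CPM in the controls of numbers 1, 2 and 3, and FGG 9.68, 8.32 and 1.52 CPM.

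MUC5AC and MUC5B were also lower in number 3, by log2 values of -1.25 ± 0.06 and -0.63 ± 0.05. CEACAM7, TFPI2 and SERPINA6 were higher there, by 0.68 ± 0.09, 0.41 ± 0.04 and 0.27 ± 0.07. The median of all genes was -0.01. Of the 6 epithelial markers, EPCAM was -2.00 ± 0.18, CDH1 -0.50 ± 0.04, KRT18 -0.50 ± 0.04, KRT8 -0.26 ± 0.04, KRT19 -0.11 ± 0.03 and KRT7 0.04 ± 0.04. The goblet markers SPDEF, AGR2 and FOXA3 were -1.31 ± 0.08, -1.02 ± 0.04 and -0.93 ± 0.19. The part of these markers in the mucin and fibrinogen differences was not tested, and no label says what the number stands for. Without the 3 libraries numbered 3, the called members were 7 under siYAP and 9 under siTAZ, beside 739 and 1593 calls over all genes. Without those numbered 2 they were 3 and 7, beside 157 and 940. Without those numbered 1 they were 7 and 7, beside 320 and 1234. These contrasts chose the genes, so nothing is read from these counts.

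**Figure D4:**
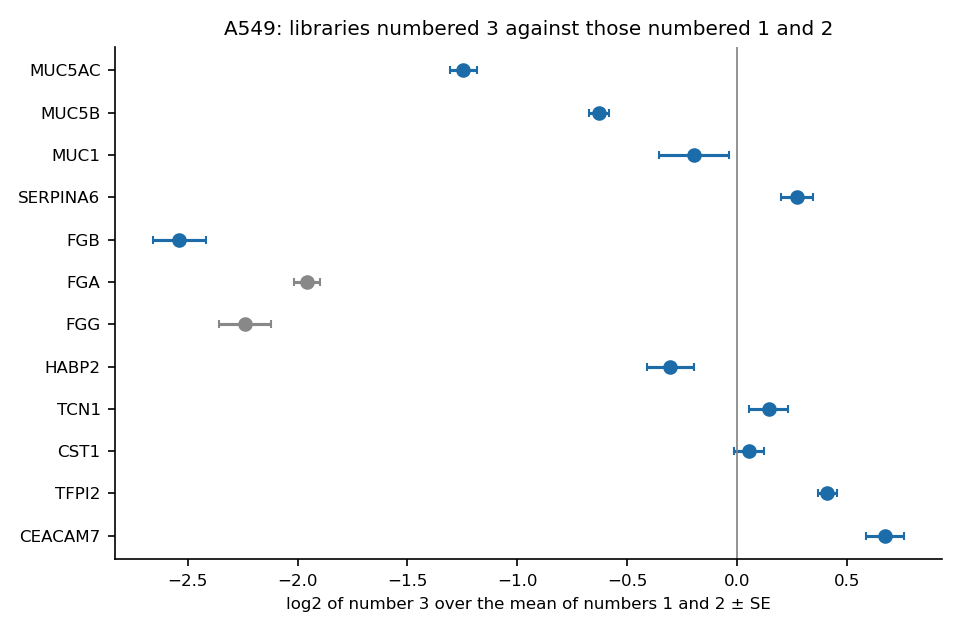
Log2 difference of the A549 libraries numbered 3 from the mean of those numbered 1 and 2, with standard errors, from the fit over 9 libraries; FGA and FGG (grey) are shown for comparison. FGB lies at -2.54 with FGA and FGG at -1.96 and -2.24, and CEACAM7 is the highest at 0.68.

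Pathway lists of 181 further genes place the 10 among related genes. In A549, 104 were tested: 20 passed upward and 2 downward under siYAP, and 31 and 3 under siTAZ. The shares are 19.2% and 1.92%, then 29.8% and 2.88%, beside the all-gene percentages given above. These A549 contrasts are the ones that chose the 10 genes, so the list values are a description. With no replicate block 0 list genes passed in either, and with DESeq2 5 and 20 passed upward. Leaving out 1 library lowered the upward siYAP count to as few as 3 (without siYAP replicate 2) and the siTAZ count to as few as 19 (without siControl replicate 1).

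Among mucous genes in A549, AGR2, a disulfide isomerase needed for mucin folding, had log2 values of 0.39 ± 0.04 under siYAP and 0.43 ± 0.04 under siTAZ. The secretory transcription factor XBP1 had 0.16 ± 0.05 and 0.26 ± 0.04. LYZ, lysozyme, had 1.66 ± 0.46 and 2.26 ± 0.43 at 0.219 CPM in controls. In all, 4 of 11 tested genes of that list passed upward under siYAP, 5 under siTAZ and 0 downward. Of 5 membrane mucins, MUC13 passed in both (0.29 ± 0.06 and 0.43 ± 0.06), and MUC20 under siTAZ alone (1.07 ± 0.37), a call that held in 1 of its 16 alternatives. Of the other gel-forming mucins, MUC6 stood at 0.183 CPM in controls and was not called, and MUC2 and MUC19, at 0.180 and 0.283 CPM, did not pass the filter on low counts. The secreted OVGP1 was called under neither knockdown against control. It was called higher in siYAP than in siTAZ, a call that held in 5 of its 16 alternatives. Of 17 enzymes of mucin-type O-glycosylation, 1 passed upward and 1 downward under siYAP and 5 upward under siTAZ. They include the sialyltransferase ST3GAL1 (siTAZ 0.39 ± 0.05), GALNT7, which adds N-acetylgalactosamine (0.22 ± 0.04), and B3GNT3 (0.25 ± 0.06 under siYAP and 0.32 ± 0.06 under siTAZ).

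Other plasma proteins of liver type moved upward in A549 where they passed, 9 of 19 under siYAP and 8 of 19 under siTAZ, with 0 downward. TTR, the thyroxine carrier transthyretin, had log2 values of 0.58 ± 0.14 and 0.98 ± 0.13. The copper protein CP had 0.18 ± 0.05 and 0.41 ± 0.05. TTR did not share the pattern of fibrinogen between replicate numbers: its libraries numbered 3 lay 1.75 ± 0.11 above numbers 1 and 2.

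Of 21 coagulation and fibrinolysis genes in A549, 1 passed upward and 1 downward under siYAP, and 5 and 3 under siTAZ. Coagulation factor F5 had 0.49 ± 0.05 under siTAZ. Thrombomodulin (THBD) was -0.28 ± 0.06 under siTAZ. Of 9 transcription factors of liver and foregut, FOXA2 (0.18 ± 0.06) and CEBPB (0.21 ± 0.05) passed under siTAZ and 0 under siYAP. In the families of the remaining members, CEACAM6 had 0.16 ± 0.05 and 0.30 ± 0.05, and CST3 had 0.23 ± 0.04 under siTAZ. TCN2, the other plasma B12 carrier, had 0.19 ± 0.06 under siYAP and 0.32 ± 0.06 under siTAZ. CEACAM1 and CEACAM19 passed under siYAP (0.21 ± 0.06 and 0.32 ± 0.07), and the B12 transporter ABCD4 passed under siTAZ (0.15 ± 0.05). Several of these A549 calls held in few of their 16 alternatives: ABCD4 under siTAZ in 2, FOXA2 under siTAZ in 7, and under siYAP TCN2 in 5, CEACAM6, XBP1 and CP in 6, CEACAM1 in 7 and LYZ in 8.

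In H1299 the same lists were tested in libraries that did not choose the 10 genes, though the lists themselves were drawn up with earlier results known. Of 57 tested, 11 rose and 0 fell under siYAP (19.3% and 0%), beside 7.89% and 8.75% of all genes tested. Under siTAZ 14 rose and 3 fell (24.6% and 5.26%), beside 10.9% and 12.4% of all genes. Between siYAP and siTAZ 6 were higher and 4 lower (10.5% and 7.02%), beside 5.6% and 6.1%. In the fit with a replicate block the counts were 18 and 3 under siYAP, 9 lower under siTAZ, and 10 and 10 between the knockdowns. Without the libraries numbered 3 they were 1 higher under siYAP and 0 under siTAZ, and without those numbered 1 they were 2 and 3, with 2 libraries left in each group. Leaving out 1 library gave 7 (without siYAP replicate 1) to 16 higher under siYAP and 8 (without siTAZ replicate 3) to 20 under siTAZ.

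Of 4 membrane mucins tested in H1299, MUC4, MUC15 and MUC20, the 3 on the list, rose under siYAP and MUC15 rose under siTAZ, while MUC1 passed in neither (values above). MUC4 measured 1.55, 0.596 and 1.91 CPM in siControl, 8.52, 5.71 and 7.89 in siYAP and 2.94, 1.46 and 2.79 in siTAZ. Its siYAP libraries lie above all others, with a log2 change of 2.43 ± 0.32 (edgeR adjusted p = 0.000876), and its siTAZ value was 0.81 ± 0.36 (adjusted p = 0.119). MUC20 measured 3.10, 1.49 and 2.19 CPM in siControl, 8.77, 5.55 and 7.89 in siYAP and 1.80, 2.01 and 2.69 in siTAZ.

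MUC20 thus overlapped control under siTAZ and not under siYAP, where its log2 change was 1.71 ± 0.25 (adjusted p = 0.00145). Both MUC4 and MUC20 were higher in siYAP than in siTAZ (log2 1.63 ± 0.29 and 1.77 ± 0.25, edgeR adjusted p = 0.00339 and 0.000829). MUC15 measured 16.2, 22.2 and 21.1 CPM in siControl, 45.6, 33.4 and 42.9 in siYAP and 40.5, 33.8 and 48.4 in siTAZ. Its knockdown groups lie above control and overlap each other, with log2 changes of 1.04 ± 0.16 in both (edgeR adjusted p = 0.00154 and 0.001). The call of MUC4 under siYAP held in all 16 alternatives and that of MUC20 in 15.

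Further secretory genes of H1299 included CREB3L1, a transcription factor of the secretory pathway, which rose under siYAP (0.72 ± 0.14, adjusted p = 0.00533), and FCGBP, a mucus-associated protein (0.44 ± 0.12, adjusted p = 0.0262). Among O-glycosylation enzymes B3GNT3 rose under siYAP from 4.5 to 11.9 CPM (1.41 ± 0.21, adjusted p = 0.00154). The sialyltransferase ST6GALNAC2 rose under siTAZ from 1.97 to 5.42 CPM (1.46 ± 0.22), and C1GALT1C1, the chaperone of core 1 synthase, fell (-0.64 ± 0.11). The other 9 of the 12 enzymes did not pass under siYAP or, except GALNT10, under siTAZ.

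Coagulation genes in H1299 gave 1 rise of 13 under siYAP and 4 under siTAZ, where 7.89% and 10.9% of all genes rose. PROS1, protein S, rose in both (0.42 ± 0.10 and 0.54 ± 0.10), PLAT, the tissue plasminogen activator, rose under siTAZ (0.45 ± 0.08), and VWF rose there from 0.212 to 0.752 CPM. Both liver-type proteins tested, C5 and SERPINA1, rose under siTAZ (0.66 ± 0.14 and 0.61 ± 0.14). The lung and foregut factor NKX2-1 rose from 0.381 CPM to 1.07 and 1.04 CPM. For vitamin B12, TCN2 and CUBN, a receptor for B12 bound to intrinsic factor, rose in both knockdowns, TCN2 by 0.38 ± 0.09 and 0.52 ± 0.09 and CUBN by 1.13 ± 0.16 and 0.84 ± 0.16. CD320, the cell-surface receptor for TCN2, fell under siTAZ (-0.51 ± 0.12). Cystatin C, CST3, rose in both (0.43 ± 0.09 and 0.33 ± 0.09). Several of these H1299 calls held in fewer alternatives than those of MUC4 and MUC20. Under siYAP, FCGBP and NKX2-1 held in 9 of 16 and PROS1 and TCN2 in 11. Under siTAZ, CST3 held in 10 of 16, NKX2-1 in 11 and VWF in 10 of the 15 that could be fitted. The siControl libraries held 10, 2 and 8 counts of NKX2-1 and 4, 4 and 3 of VWF. Fibroblast markers, 3 of 5 listed, summed to 5.06 to 5.78 CPM in siControl, 9.50 to 12.5 in siYAP and 7.87 to 11.2 in siTAZ. Endothelial markers (3 of 4 listed, VWF one of them, without CDH5) were 1.13 to 1.89, 2.19 to 3.52 and 2.01 to 2.74 CPM in the same order of groups, and ciliated markers (3 of 4, without FOXJ1) 4.64 to 6.49, 6.51 to 7.95 and 8.79 to 9.41 CPM. Alveolar type 2 markers (4 of 9, NKX2-1 one of them, no surfactant protein gene listed) were 170 to 184 CPM in siControl, 208 to 269 in siYAP and 180 to 202 in siTAZ. Nearly all of this sum was ABCA3, at 162 to 175 CPM in siControl and 200 to 261 in siYAP. Under siYAP the mean of LAMP3 was lower (7.06 to 5.32 CPM), and those of NAPSA (0.755 to 1.73 CPM) and NKX2-1 were higher. Of 5 goblet markers H1299 lists FOXA3 alone, at 0.112 to 0.179 CPM in siControl, 0.190 to 0.374 in siYAP and 0.203 to 0.251 in siTAZ. Under siTAZ, basal (KRT15, 1 of 4 listed) and neuroendocrine markers (2 of 4) lay below control, at 44.4 to 53.0 against 64.8 to 85.6 CPM and 5.59 to 12.1 against 14.5 to 22.4 CPM. The part of these markers in the changes was not tested.

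**Figure D5:**
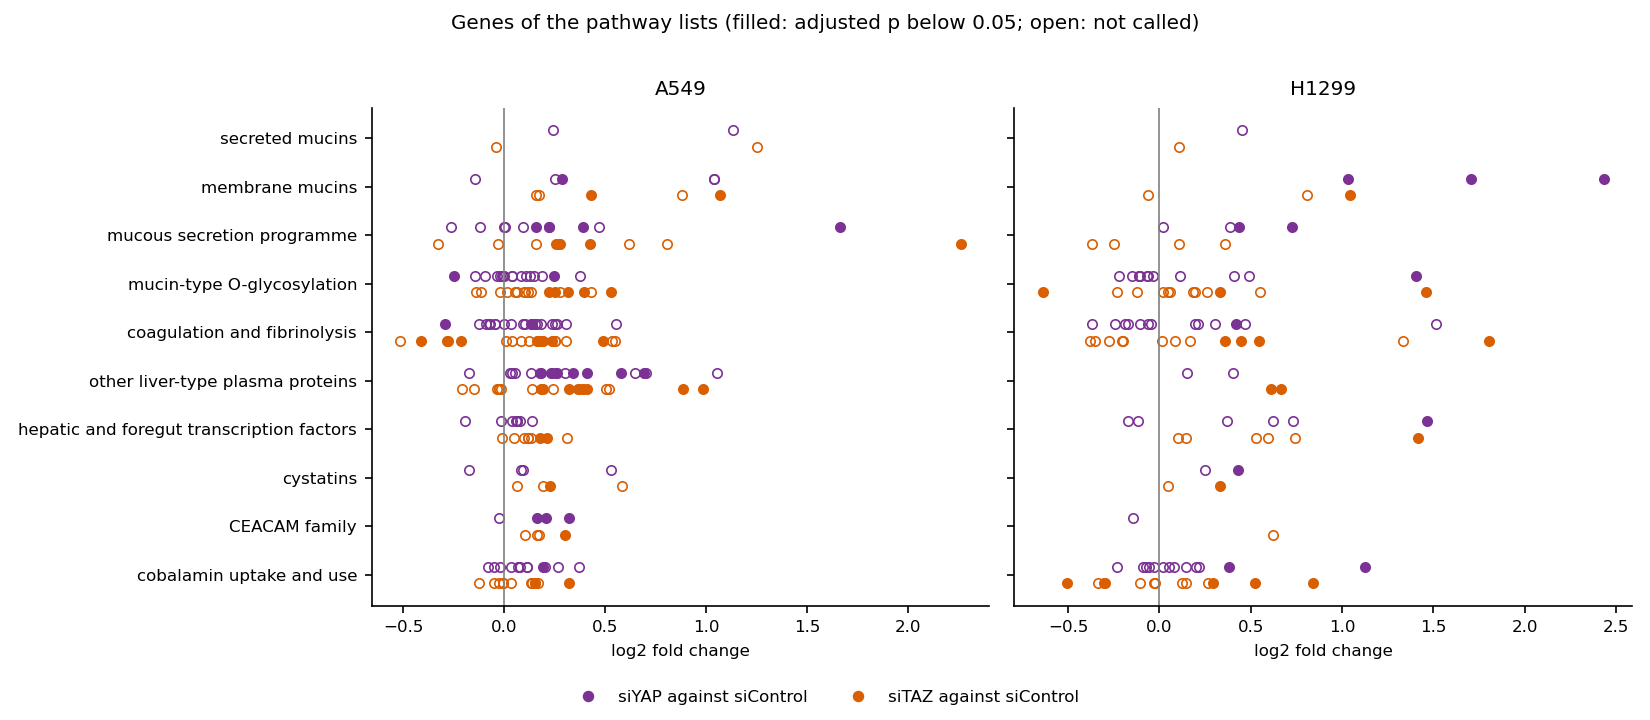
Log2 fold change of every tested gene of the 10 pathway lists in A549 (left) and H1299 (right), purple for siYAP and orange for siTAZ against siControl; filled points passed the adjusted p threshold and open points did not. In H1299 the 3 membrane mucins of the list, which leaves out MUC1, lie at 1.04 to 2.43 under siYAP, and in A549 the filled points of the liver-type list lie above 0.

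Genes most like each member were sought among 10511 protein-coding A549 genes by the correlation of log2 CPM over the 9 libraries, with number means removed. For MUC5AC they were FUZ (r = 0.995) and CAMKK1 (r = 0.987), and for MUC5B they were ADCY5 (r = 0.987) and SMPD1 (r = 0.986). SMARCD3 and LIPH were closest to SERPINA6, QPRT to HABP2, and HIST1H3E and ATXN3 to FGB. TCN1 was most like IL6R and UBE2O, with IL6R at log2 changes of -0.03 under siYAP and 0.34 under siTAZ. CST1 was most like CKAP4 and PHLPP2, and TFPI2 most like ANXA3 (-0.18 and -0.50) and NUP58 (-0.16 and -0.53). CEACAM7 was most like ACTA2 and SPP1. The libraries share siRNA groups, and the values of r are given as a description.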

How the data were processed

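Per the submitters' processing notes, the tools were cutadapt, STAR 2.4.2a and DESeq2 and the build was GRCh38. The program, annotation and strand setting of the counting step were not given in the sources used here. What the authors deposited is a table of raw counts per gene symbol for each line, beside their own log2 fold changes and adjusted p-values, used only as a check. DESeq2 1.42.0 returned the deposited log2 fold changes to within 0.001 for 100% of genes in H1299 (no block) and 99.9951% in A549 (blocked on replicate number).

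Counts were fitted per line with edgeR 4.0.16 (R 4.3.3): filterByExpr, TMM, glmQLFit and glmQLFTest, Benjamini-Hochberg over all genes tested, calls at an adjusted p below 0.05. A549 was fitted with the replicate number as a block, H1299 without. Same-numbered libraries deviated together, with correlations of 0.108 to 0.383 in H1299 and 0.384 to 0.729 in A549 (all over 0.1). Libraries of different number and siRNA gave -0.324 to 0.160 in H1299 and -0.550 to 0.279 in A549. The numbers thus pair the samples from the data in A549. In H1299 the ranges overlap, so the data show pairing less clearly there. The sample descriptions share a prefix per number in both lines: A, B and C in H1299 and IQ, IY and IZ in A549. The main H1299 p-values thus leave out a pairing that the descriptions give, and for TFPI2 the values with the block are given above. The labels do not say what the number or prefix stands for. Replicates differed beyond counting noise (chi-square per degree of freedom 5.97 to 27.5). SE is the absolute log2 change over the root of F, and the prior count for log2 CPM was 2. Gene models came from GENCODE 29, which holds 97.8% of the symbols. Level per kilobase uses the union of exons.

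The 10 genes, the pathway and marker lists and the tests were chosen with earlier results of these data known. Named list genes are at most 3 per list and line, by smallest adjusted p among those called, or by A549 control level where none was called. A few genes that this rule or the likeness rule names are not reported here. Alternatives were the other choice of block, DESeq2, RLE scaling, no filter (each listed gene already reaches 6 counts in 1 or more libraries), and leaving out each library or each replicate number. The test of replicate number was added after the data were seen. The fit was tested on simulated data.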

Additional observations from a re-analysis of the deposited data

Results flagged for a closer look

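In the list genes named, 2 moved one way in all same-numbered pairs of one line and the other way in all pairs of the other, and this difference between lines was not tested. XBP1 under siTAZ was -0.37 ± 0.14 on the log2 scale in H1299 (edgeR adjusted p = 0.0716) and 0.26 ± 0.04 in A549. GALNT7 under siYAP was -0.22 ± 0.10 in H1299 (edgeR adjusted p = 0.157) and 0.13 ± 0.04 in A549.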

How the results depend on the processing

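Of the A549 log2 values of the 10 genes, 472 of 480 recomputed under alternatives kept their direction, and all 304 belonging to values past the threshold did. The same libraries chose the genes, and the alternatives reuse most of them. A kept direction was therefore likely from the start, and nothing is read from it. Calls depended on the fit. Without the replicate block, 0 of the 10 were called in A549 under siYAP (7 with it), siTAZ (9) or between them (3), and the calls over all genes fell from 909, 2134 and 1127 to 1, 1 and 2. In H1299 the replicate block added TFPI2 under siTAZ and between the knockdowns (1 called in each), and all-gene calls rose from 2625, 3680 and 1846 to 4461, 5606 and 3399. DESeq2 called 1 of the 2 between the knockdowns in H1299, as did the fit without the libraries numbered 2, while the fit without those numbered 3 called 0 under siYAP. In A549, DESeq2 gave 377, 1132 and 525 calls over all genes and 5, 20 and 1 list genes higher and 6 lower between the knockdowns, and without the libraries numbered 2 the members called under siYAP were 3.

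Leaving out 1 library gave 0 to 1 members called in each H1299 comparison, and in A549 3 to 7 under siYAP (3 without siControl replicate 2), 7 to 9 under siTAZ and 3 to 4 between them. All-gene calls ranged over 1124 to 3076, 1715 to 4301 and 856 to 2102 in H1299 and 164 to 1027, 1057 to 2142 and 308 to 1276 in A549. Without the 3 libraries numbered 1, 2 or 3, all-gene calls were 114, 4430 and 34 for siYAP in H1299, 719 and 144 (numbers 1 and 3) for siTAZ and 468, 2945 and 190 between them. In A549 they were 320 and 157 (numbers 1 and 2), 1234 and 940, and 639, 289 and 703.

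MUC1 in H1299 had no stable sign: leaving out 1 library gave log2 values of -0.07 to 0.15 under siYAP (-0.0655 without siYAP replicate 1) and -0.21 to 0.08 between the knockdowns (0.0771 without siTAZ replicate 3), and leaving out numbers 1 or 3 gave -0.10 and 0.15 in those comparisons. The cause was not tested. Of 32 calls of named list genes in H1299, 32 held with the replicate block and 31 with DESeq2, 23 without siTAZ replicate 3, 9 without number 1, and 3 of the 31 that could be fitted without number 3. Of 40 in A549, 23 held with DESeq2 and 0 with no replicate block, and no call reversed in either line. The members called by replicate number ranged from 7 to 9 when 1 library was left out. Depth limits MUC1 in A549 and FGB in number 3.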
